A study of Mus musculus with 9 samples.

Results

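The 6 genes described here encode the heavy and light chains of cardiac myosin: Myh6, Myh7, Myl2, Myl3, Myl4 and Myl7. They were chosen by gene symbol, as every probe of the array annotated to any of them, which gave 10 probes of 45281. Of these, 9 were detected often enough to be tested, among 19707 such probes in all, and each of the 6 genes kept at least 1. Total RNA was measured on 9 Illumina bead arrays, 3 for each of 3 groups of mouse cells. The mES group is undifferentiated embryonic stem cells from a source labelled TBV2, the CMp group is purified cardiomyocytes from the heart of 1 day old mice, and the CMa group is purified cardiomyocytes from the left ventricle of 2 month old mice. No treatment was applied to any group, and the same standard purification and culture is stated for all 3. The samples are stated to be biological triplicates, with no animal or culture named, so a p-value here measures the spread between these samples. Age and heart region changed together between CMp and CMa and cannot be told apart, which matters for genes that are known to differ between atrium and ventricle.

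Myosin is the motor of the thick filament of muscle. Each molecule holds a pair of heavy chains, whose heads bind actin and split ATP, and each head carries an essential and a regulatory light chain. In the heart the heavy chain is alpha (Myh6), which works faster, or beta (Myh7), which is slower and more economical. In mice beta prevails in the ventricle before birth and alpha after it. The regulatory light chain is Myl2 in the ventricle and Myl7 in the atrium, and the essential light chain is Myl3 in the ventricle and Myl4 in the atrium. Myl4 is also made in the ventricle of the embryo. In bulk RNA such as this, fewer cells of a type and less RNA per cell cannot be told apart.

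Levels are given as log2 intensity, corrected for background and quantile normalized, and a probe counted as detected on an array where its detection p was under 0.01. The arrays detected 13781 to 17946 probes each, with the fewest on the CMa arrays. Within groups, pairs of arrays correlated across the 19707 probes at Pearson's r of 0.987 to 0.993 in mES, 0.951 to 0.994 in CMp and 0.965 to 0.983 in CMa. CMp replicate 1 stood apart from the other CMp arrays: of 10800 genes, 36% were above both other CMp arrays on it and 49.5% below both. The changes of Myh7, Myl4 and Myl7 in comparisons with CMp are therefore given with and without it. Most results for other genes and for marker lists are given only with it and may depend on it. All 9 measured of 10 general cardiomyocyte markers, among them Tnnc1, Actc1 and Ryr2, were called higher in CMp and in CMa than in mES. Of all genes 34.9% were called higher in CMp and 36.3% in CMa. Nanog and Pou5f1, which define pluripotent cells, were detected on all 3 mES arrays and on no cardiomyocyte array. Of 8 such markers, the log2 of the summed intensities (their log2 sum) was 16.05 to 16.18 in mES. In the cardiomyocytes it was 8.91 to 9.02 in CMp and 10.24 to 10.69 in CMa. There it lay close to the level of Esrrb alone, with means of 8.31 in CMp and 10.22 in CMa.

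The alpha heavy chain, Myh6, was at a high level in cardiomyocytes of both ages and close to background in stem cells. The scanner signal of its brightest probe was 155.1, 167 and 139.4 on the 3 mES arrays, 26457.1, 31188.5 and 32000.6 on the CMp arrays and 27402.8, 30491.5 and 36480.5 on the CMa arrays. The CMp and CMa signals overlapped, and every one of them lay far above the mES signals. On the log2 scale the level was 5.71 ± 0.18 in mES (SD, n = 3, as for all such values), 14.96 ± 0.11 in CMp and 14.96 ± 0.16 in CMa. Myh6 was 609-fold higher in CMp than in mES (adjusted p = 1.75e-10, limma with Benjamini-Hochberg adjustment over all tested probes, as for every adjusted p) and 608-fold higher in CMa than in mES (adjusted p = 1.25e-10). The size of these folds depended on the processing: over the 22 alternative settings the log2 change in CMp over mES ran from 7.34, in the authors' matrix, to 9.50. Between CMa and CMp the log2 difference was 0.00 ± 0.17 (SE, adjusted p = 0.994), with a 95% interval of -0.37 to 0.37, which leaves room for a fold between 0.774 and 1.29. These signals were 66.6% to 81% of the highest signal on their array, a range in which a difference can be compressed. The second Myh6 probe was less bright, at 5.5% to 9.3% of the highest signal on the cardiomyocyte arrays, and was undetected on all mES arrays. It was at least 107-fold higher in CMp and at least 128-fold higher in CMa than in mES, where "at least" sets an undetected group at the lowest detected level of each array. Its difference between CMa and CMp was 0.26 ± 0.20 (adjusted p = 0.318), with a 95% interval of -0.19 to 0.71.

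The beta heavy chain, Myh7, was highest in neonatal cardiomyocytes, lower in adult ones and undetected in stem cells. Its brightest probe gave 102.9, 102.3 and 90 on the mES arrays, 712.9, 228.1 and 239 on the CMp arrays and 142.3, 138.3 and 150.4 on the CMa arrays. The CMp and CMa signals did not overlap, and CMp replicate 1 was the highest of all 9. The log2 levels were 4.36 ± 0.05 in mES, 8.22 ± 1.10 in CMp and 6.82 ± 0.13 in CMa. With this background correction Myh7 was at least 9.33-fold higher in CMp than in mES (adjusted p = 1.8e-05), a log2 change of 3.86 that was 2.08 with no background correction, 1.26 in the authors' matrix and 3.23 without CMp replicate 1. It was 2.65-fold lower in CMa than in CMp, a log2 change of -1.40 ± 0.43 (adjusted p = 0.0206). Without CMp replicate 1 that change was -0.77 ± 0.16 (adjusted p = 0.00271). The call was lost without CMa replicate 1 (adjusted p = 0.0506), without CMa replicate 2 (adjusted p = 0.0618), in the authors' normalized matrix (log2 change -0.73, adjusted p = 0.0836) and with no detection filter (adjusted p = 0.0654).

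The other pair of Myh7 probes was also highest in CMp. Detection on CMp arrays alone let them be tested, so this direction was largely fixed by the detection filter. These probes are therefore no separate test of the direction. They were at least 2.39-fold (adjusted p = 9.88e-05) and at least 1.95-fold (adjusted p = 0.000949) higher in CMp than in mES. One measured 202.1, 126.4 and 130.7 on the CMp arrays and 86.3, 88 and 89.6 on the CMa arrays, and it was detected on every CMp array and on no CMa or mES array. It was at least 1.7-fold lower in CMa than in CMp (adjusted p = 0.000292). The third probe measured 178, 109.1 and 133.2 in CMp and 82.5, 93.4 and 95 in CMa, again undetected in CMa and mES, and was at least 1.39-fold lower in CMa (adjusted p = 0.0059). Only the brightest probe separated CMa from mES, at least 3.52-fold (adjusted p = 0.000403), while the others had log2 differences of 0.05 (adjusted p = 0.869) and 0.30 (adjusted p = 0.418), both below background on either side. That call of the brightest probe was lost in the authors' matrix (log2 difference 0.53, adjusted p = 0.143).

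Myh6 and Myh7 lie next to each other on mouse chromosome 14, and RefSeq lists no gene between them. Their promoters are shown because these neighbours were both high or raised in CMp and only Myh7 was lower in CMa. Each sequence runs from 250 bases before to 50 bases after a RefSeq transcription start (build GRCm38.p6, minus strand), at chr14:54966558-54966857 for Myh6 and chr14:54994577-54994876 for Myh7, the more upstream of the 2 starts listed for Myh7. Capitals mark the TATA box TATAAA and the MCAT element CATTCC, the site of TEAD factors, on either strand.
Myh6 promoter: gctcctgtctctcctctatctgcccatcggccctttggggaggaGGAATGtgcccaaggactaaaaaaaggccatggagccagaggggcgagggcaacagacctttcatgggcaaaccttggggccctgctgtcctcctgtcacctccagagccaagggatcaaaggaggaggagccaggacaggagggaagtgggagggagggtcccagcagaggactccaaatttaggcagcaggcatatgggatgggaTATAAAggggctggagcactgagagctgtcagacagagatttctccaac
Myh7 promoter: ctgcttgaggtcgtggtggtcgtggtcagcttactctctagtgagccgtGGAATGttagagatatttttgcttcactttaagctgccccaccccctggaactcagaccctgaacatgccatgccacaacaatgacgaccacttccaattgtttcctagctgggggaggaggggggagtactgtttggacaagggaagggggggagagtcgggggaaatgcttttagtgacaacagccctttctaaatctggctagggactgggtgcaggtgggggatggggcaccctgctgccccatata
MCAT was present in both, at position -206 of Myh6 and -201 of Myh7 (the first base of the match, with the start as 1), and in 14.7% of 32851 mouse promoters of the same length. TATAAA was present in the Myh6 promoter at position 2 from the listed start, in a promoter of Myl2 and in 13.6% of all promoters. Such a match describes the letters and does not show that a factor binds.

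Each heavy chain gene also holds a microRNA, mir-208a in Myh6 and mir-208b in Myh7, which in mice are made from the host transcript. They are printed because they tie each heavy chain transcript to a regulator, and they were not measured on these arrays. In the RefSeq sequences below (GRCm38.p6, minus strand) the seed, bases 2 to 8, is in capitals. They lie at chr14:54949072-54949093 and chr14:54975710-54975731.
miR-208a-3p: aUAAGACGagcaaaaagcuugu
miR-208b-3p: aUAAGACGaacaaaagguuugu
The seed was the same in both, and 19 of 22 positions were identical.

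Among the regulatory light chains, ventricular Myl2 was equally bright in neonatal and adult cells within its error, whereas atrial Myl7 was higher in neonatal cells. Myl2 signals were 145.4, 112 and 167.2 in mES, 28880.7, 43749.1 and 33401.7 in CMp and 27585.1, 33381 and 40474.3 in CMa. The cardiomyocyte groups overlapped, and all 6 of their arrays were far above mES. In log2 units Myl2 stood at 5.37 ± 0.76 in mES, where it was detected on 2 of 3 arrays, at 15.12 ± 0.16 in CMp and at 15.03 ± 0.21 in CMa. That is 863-fold higher in CMp (adjusted p = 3.37e-09) and 809-fold higher in CMa (adjusted p = 2.95e-09) than in mES, and over the settings the log2 change in CMp over mES ran from 7.56 to 10.15. The CMa minus CMp difference was -0.09 ± 0.32 (adjusted p = 0.843), with a 95% interval of -0.81 to 0.63, and it turned to 0.03 with arrays scaled to a common median and to 0.10 with cyclic loess. The Myl2 signals reached 72.7% to 93.4% of the highest on their arrays.

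Myl7, the atrial regulatory light chain, measured 138.7, 131.8 and 128.9 in mES, 5951.1, 751.2 and 668.2 in CMp and 126.6, 301.7 and 218.9 in CMa. No CMa signal reached the lowest CMp signal, and CMp replicate 1 was far above the other CMp arrays. The log2 levels were 5.28 ± 0.10, 10.70 ± 1.72 and 7.57 ± 1.06. Myl7 was 42.8-fold higher in CMp than in mES (adjusted p = 9.08e-05) and 8.76-fold lower in CMa than in CMp, a log2 change of -3.13 ± 0.75 (adjusted p = 0.00614). Without CMp replicate 1 the change was -2.14 ± 0.46 (adjusted p = 0.00287), and without replicate 1 of both CMp and CMa it was -1.55 ± 0.21 (adjusted p = 0.000243). Over all 22 alternative settings the change of Myl7 between CMa and CMp stayed between -3.64 and -1.55 and was called in each. Against mES, Myl7 in CMa was 4.88-fold higher (adjusted p = 0.0178), a call lost in 8 of 22 settings, among them the authors' matrix (log2 difference 0.76, adjusted p = 0.379) and the fits without mES replicate 2 (adjusted p = 0.0539), CMa replicate 2 (adjusted p = 0.0728) or CMa replicate 3 (adjusted p = 0.0525).

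The essential light chains followed the same division. Ventricular Myl3 measured 146.1, 122.8 and 111.3 in mES, 33220.3, 46280.4 and 37483.1 in CMp and 27785.6, 38469.4 and 37559.3 in CMa. The CMp and CMa ranges overlapped, and the highest value, on CMp replicate 2, was 98.8% of the highest signal on that array. Myl3 levels were 5.08 ± 0.31 in mES, where it was detected on 1 of 3 arrays, 15.23 ± 0.08 in CMp and 15.06 ± 0.20 in CMa. Both cardiomyocyte groups were higher than mES, CMp 1140-fold (adjusted p = 1.75e-10) and CMa 1010-fold (adjusted p = 1.35e-10). These sizes are limited at both ends, by the floor in mES and the top of the scale in cardiomyocytes, and the log2 change in CMp over mES ran from 7.74 to 10.63 over the settings. Between CMa and CMp the difference was -0.17 ± 0.19 (adjusted p = 0.511), with a 95% interval of -0.60 to 0.26.

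Myl4, the atrial and embryonic essential light chain, measured 378.8, 169.6 and 375.1 in mES, 14347.6, 3123.5 and 2959.2 in CMp and 416.6, 1077.6 and 992.4 in CMa. CMp replicate 1 was again the highest, the CMa arrays lay between the other groups without overlap, and CMa replicate 1 was only slightly above the highest mES signal. The log2 levels were 7.07 ± 0.96, 12.62 ± 1.14 and 9.98 ± 0.76. Myl4 was 47-fold higher in CMp (adjusted p = 2.05e-05) and 7.53-fold higher in CMa (adjusted p = 0.00166) than in mES. It was 6.24-fold lower in CMa than in CMp, a log2 change of -2.64 ± 0.62 (adjusted p = 0.00584). That change was -1.99 without CMp replicate 1 (adjusted p = 0.00905) and -1.54 without replicate 1 of both groups (adjusted p = 0.0201), and it was called in all 22 alternative settings. A second Myl4 probe was detected on none of the 9 arrays and was not tested.

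The light chain promoters of Myl3 and Myl7 are shown because they alone among the 6 genes held a CArG box, the site of serum response factor. They are RefSeq sequences of build GRCm38.p6, at chr9:110763428-110763727 on the plus strand for Myl3 and chr11:5898733-5899032 on the minus strand for Myl7. Capitals mark the CArG box and MCAT.
Myl3 promoter: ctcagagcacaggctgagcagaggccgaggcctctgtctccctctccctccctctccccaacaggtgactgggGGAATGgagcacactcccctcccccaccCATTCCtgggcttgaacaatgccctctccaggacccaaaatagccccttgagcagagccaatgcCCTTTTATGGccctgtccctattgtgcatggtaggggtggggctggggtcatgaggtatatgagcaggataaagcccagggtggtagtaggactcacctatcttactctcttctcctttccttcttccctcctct
Myl7 promoter: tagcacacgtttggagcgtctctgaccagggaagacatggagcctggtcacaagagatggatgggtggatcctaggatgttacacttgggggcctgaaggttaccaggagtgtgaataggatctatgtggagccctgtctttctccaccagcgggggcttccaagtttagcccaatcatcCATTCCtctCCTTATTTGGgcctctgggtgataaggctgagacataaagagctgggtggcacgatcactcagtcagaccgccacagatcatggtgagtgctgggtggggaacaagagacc
The CArG box began at position -85 of Myl3 and -61 of Myl7, and 1.63% of all 32851 promoters held one. Of these genes Myl7 fell in CMa and Myl3 was not called. MCAT was in 4 of the 6 genes, Myh6, Myh7, Myl3 and Myl7, the E-box CANNTG in all but Myl4 (72.3% of promoters), the nuclear receptor motif AGGTCA in Myl2 alone (16.3%), and the MEF2 site in none (3.19%). These windows say nothing of sites outside them, and overlaps between motifs were allowed.

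All 6 genes were called higher in CMp than in mES, where of the 10800 genes 34.9% were called higher, 38.2% lower and 73.1% in either direction. Likewise all 6 were called higher in CMa than in mES, beside 36.3% of all genes higher, 39.8% lower and 76% in either direction. Between CMa and CMp, 3 of the 6 were called lower (Myh7, Myl4 and Myl7), none higher, beside 24.8% of all genes lower, 25.3% higher and 50% in either direction. The same 3 were called lower without CMp replicate 1. Leaving out that array also lowered the rise over mES in CMp, to 3.23 for Myh7 (3.86 with it), 4.90 for Myl4 (5.55 with it) and 4.43 for Myl7 (5.42 with it), with each call kept. By probe, 5 of the 9 tested were called lower and had groups that did not overlap, while 23.8% of the 19707 probes were called lower and 26.3% were lower without overlap. Of these 5, 3 are Myh7 probes, so the 5 are not separate results. The less bright pair of Myh7 probes was detected on CMp arrays only. The detection filter therefore kept that pair through CMp alone, which favours a lower level in CMa. The median change of the 6 genes was 7.40, 6.08 and -0.78 in the 3 comparisons, against -0.09, -0.07 and 0.01 over all genes. The comparisons share groups, so they are not independent of each other.

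**Figure D1:**
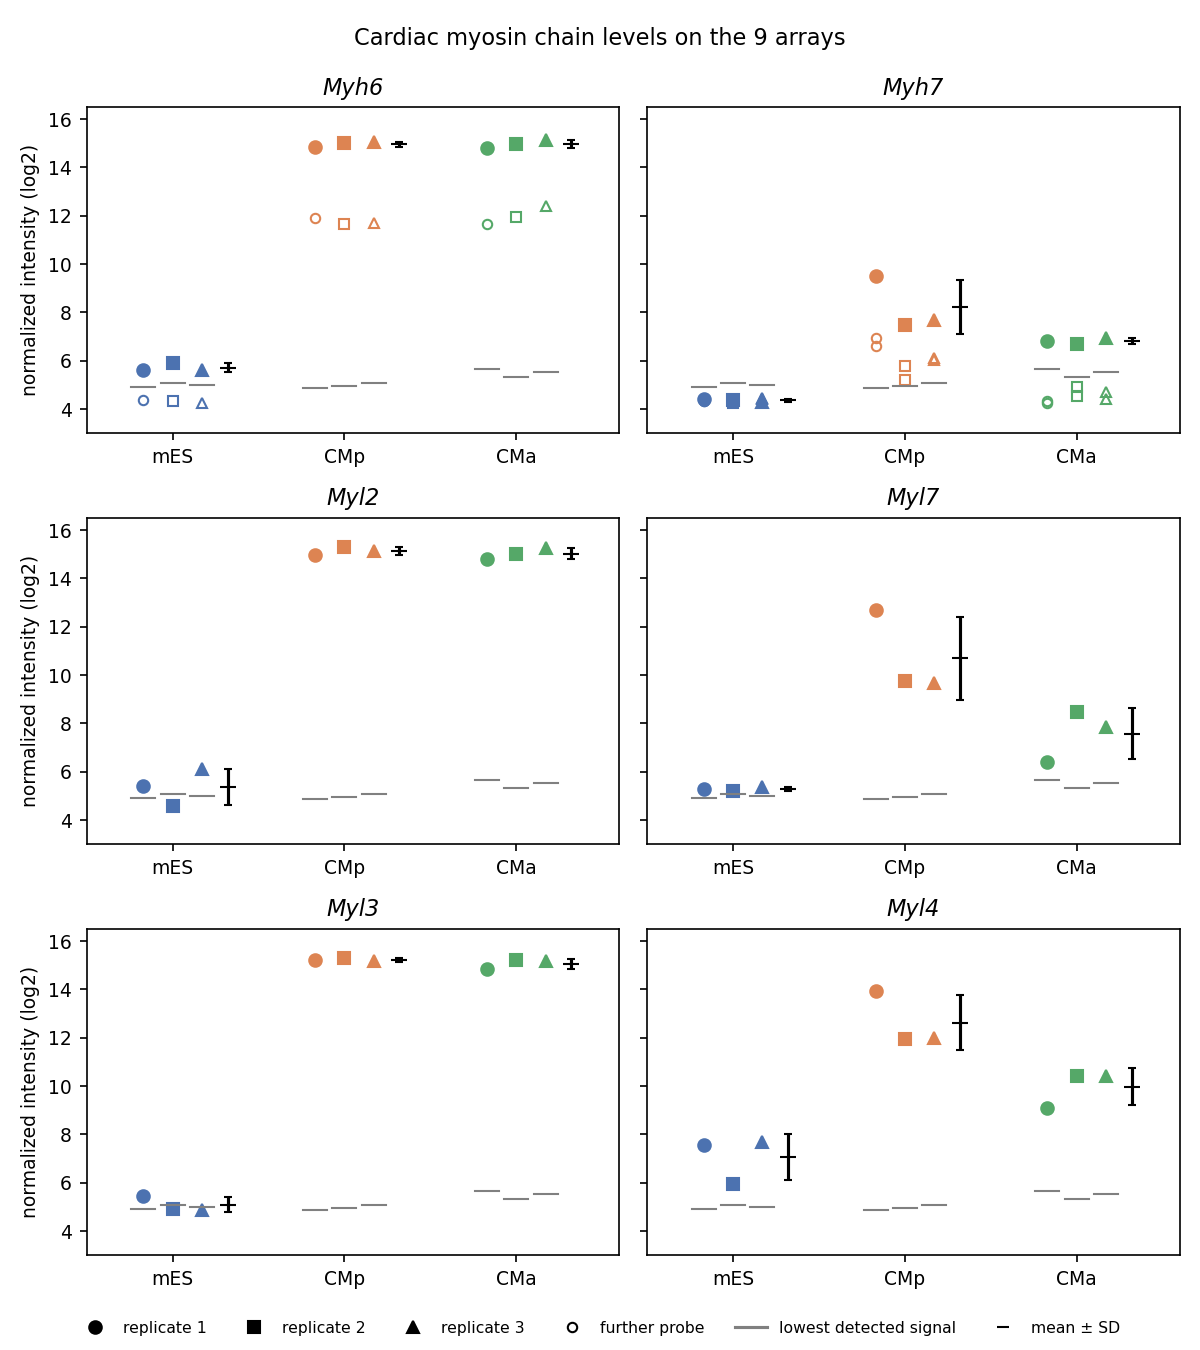
Normalized log2 intensity (y axis) of each cardiac myosin gene on the 3 mES, 3 CMp and 3 CMa arrays. Filled symbols are the brightest probe, open symbols further tested probes, black marks the mean ± SD of the brightest probe, and grey lines the lowest detected signal of each array. Myh6, Myl2 and Myl3 sit near 15 in both cardiomyocyte groups, and Myh7, Myl4 and Myl7 are highest on CMp replicate 1.

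The members were next compared in pairs of counterparts within each array, so that both genes were read from the same RNA. A rise of such a difference shows unequal change of the 2 genes and not which transcript is more abundant, since probes differ in brightness. Myh6 minus Myh7 was 5.35, 7.52 and 7.36 log2 units on the CMp arrays and 7.99, 8.26 and 8.18 on the CMa arrays. Every CMa value exceeded every CMp value, and the means differed by 1.40, or 2.64-fold (exact permutation test, two-sided, p = 0.1, adjusted over 3 pairs p = 0.1). With 3 arrays against 3, 0.1 is the smallest p this test can give.

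Both light chain pairs were also higher in CMa. Myl2 minus Myl7 was 2.28, 5.53 and 5.44 in CMp and 8.42, 6.57 and 7.37 in CMa, a difference of means of 3.04, or 8.22-fold (exact permutation p = 0.1, adjusted p = 0.1). Myl3 minus Myl4 was 1.27, 3.38 and 3.19 in CMp and 5.73, 4.77 and 4.75 in CMa, a difference of 2.47, or 5.54-fold (exact permutation p = 0.1, adjusted p = 0.1). Sizes were not compared across the 3 pairs, since Myh6, Myl2 and Myl3 were near the top of the scale and Myh7 near background in CMa. In each of the 3 pairs the groups did not overlap and CMp replicate 1 was the lowest value. Without it the differences were 0.71 for Myh6 and Myh7, 1.97 for Myl2 and Myl7 and 1.80 for Myl3 and Myl4.

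**Figure D2:**
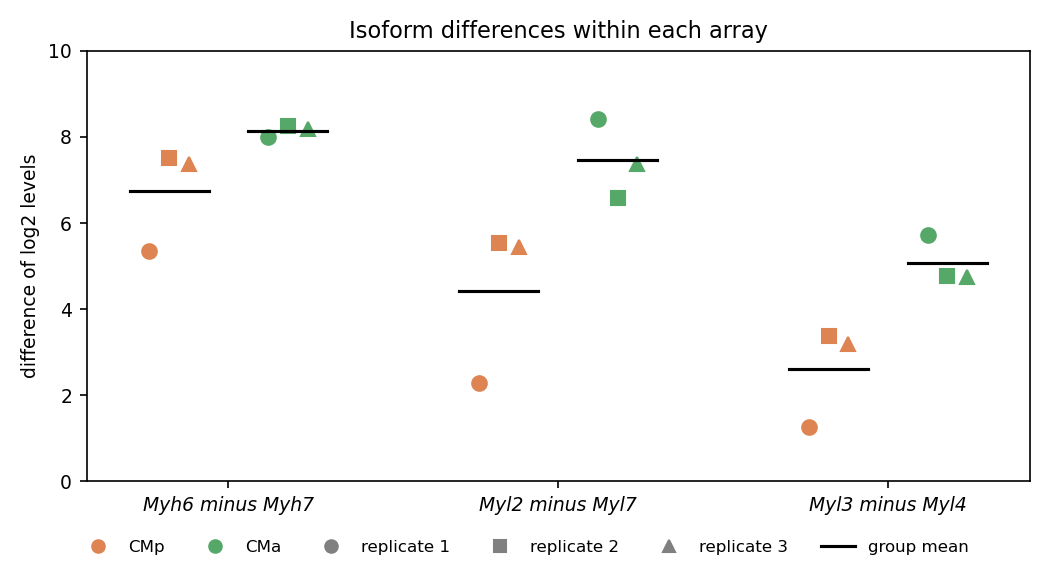
Difference of log2 levels between counterpart genes (y axis) on each CMp and CMa array for the 3 pairs on the x axis. Symbols stand for replicates and black lines for group means. In each pair all 3 CMa values lie above all 3 CMp values, and CMp replicate 1 is the lowest.

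The spread between replicates fell into distinct sizes by gene. In CMp the SD was 0.11 for Myh6, 0.16 for Myl2 and 0.08 for Myl3, below the median SD of 0.262 over all tested probes in that group. It was 1.10 for Myh7, 1.14 for Myl4 and 1.72 for Myl7, well above that median. Myh6, Myl2 and Myl3 lay at 66.6% to 98.8% of the highest signal of their arrays, where signals can be compressed, so their SDs cannot be set against those of the dimmer genes. On CMp replicate 1, Myl7 was 2.97 log2 units (7.85-fold) above the mean of the other CMp arrays, a gap as large in either direction in 0.127% of tested probes. Myl4 was 1.97 above them (3.91-fold, a gap reached by 1.75% of probes) and Myh7 1.90 above (3.73-fold, 2.1%). Myh6, Myl2 and Myl3 were slightly below, by -0.18, -0.23 and -0.05. That CMp replicate 1 was high for atrial chains was known when the genes were chosen, so these gaps are a description.

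CMa replicate 1 deviated the other way for the atrial light chains. Myl7 was -1.76 from the mean of the other CMa arrays (a gap reached by 0.193% of probes) and Myl4 -1.32 (1.2%), whereas Myh7 was level with them at 0.00. In mES the widest gap was that of Myl4 on replicate 2, -1.67 from the others, which 0.0254% of probes reached. Myl2 deviated on the same array by -1.18, and Myl7 by -0.15.

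Some markers of atrial muscle also deviated on the replicate 1 arrays. Sln, the atrial inhibitor of the sarcoplasmic calcium pump, was at 11.17, 6.28 and 6.74 on the CMp arrays, so that replicate 1 stood 4.66 above the others, and at 6.43, 8.45 and 8.35 on the CMa arrays, with replicate 1 at -1.98 from the others. Its CMa minus CMp difference was -0.32 (adjusted p = 0.84), and it turned to 1.24 without CMp replicate 1 (adjusted p = 0.0607). Nppa, the atrial natriuretic peptide, stood 1.10 above the other CMp arrays on CMp replicate 1, Stard10 1.57, Dkk3 0.81 and Gja5 0.70. Kcna5, an atrial potassium channel, went the other way (-0.95), as did Nr2f2 (-0.80) and Pam (-0.53). Of the 9 measured of 11 atrial markers, 6 were above both other CMp arrays on replicate 1 and 3 below both, while 36% of all genes were above both. On CMa replicate 1, 4 of the 9 had gaps below 0 (Sln, Dkk3 at -0.96, Nppa at -0.51 and Gja5 at -0.27) and 5 above, the largest being Stard10 at 0.84, and the median gap was 0.19. There 2 of 9 were above both other CMa arrays and 4 below both, beside 33.5% and 40.6% of all genes. The log2 sum of these markers was 15.03, 13.84 and 14 in CMp, 13.97, 14.33 and 14.53 in CMa and 8.52 to 8.70 in mES. In the cardiomyocytes it followed Nppa, the brightest of them there. In CMa against CMp, 2 of the 9 were called lower, Dkk3 by 22.9-fold (adjusted p = 3.63e-06) and Gja5 by 3.06-fold (adjusted p = 0.000186). The Gja5 call was lost in the authors' matrix (log2 change 0, adjusted p = 0.942). Kcnj3, undetected in CMp, was called at least 2.57-fold higher (adjusted p = 0.00025). The other 6 were not called, and of all genes 24.8% were called lower and 25.3% higher. Bmp10, a further atrial marker, was detected on no array. The part of atrial cells in the levels of Myl4 and Myl7 was not tested.

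Ventricular markers were also slightly higher on CMp replicate 1, 5 of 6 being above both other CMp arrays, with gaps of 0.90 for Fhl2, 0.70 for Hey2, 0.62 for Pln and 0.51 for Irx4. Their log2 sum was 14.8, 14.47 and 14.48 in CMp and at least 15.26 on each CMa array, a sum in which Lbh, Fhl2 and Pln are the brightest in CMa. Fhl2 was 3.3-fold (adjusted p = 0.000744) and Pln 2.56-fold (adjusted p = 0.000366) higher in CMa than in CMp. Kcne1 was 6.44-fold (adjusted p = 1.07e-06) and Hey2 4.14-fold (adjusted p = 2.62e-05) lower. The other 2 were not called, where 25.3% of all genes were called higher and 24.8% lower. Markers of other cells also stood apart on CMp replicate 1: of the endothelial markers 0 of 7 were above both other CMp arrays and 6 below both, while 6 of 8 fibroblast and 4 of 5 leukocyte markers were above both. Of all genes 36% were above both and 49.5% below both. Mybphl, a myosin binding protein C like gene of the atrium, chosen for mention after its values were seen, was at 9.83, 6.20 and 6.36 in CMp and 5.46, 6.80 and 6.64 in CMa. Its CMp replicate 1 stood 3.55 above the others and its CMa replicate 1 at -1.27. Genes that are not atrial markers, also chosen by their values, stood high on CMp replicate 1 too. Ppp1cb was 2.87 above the other CMp arrays, Lyz2 2.03, Smyd1 1.95 and Lum 1.74. Others were low on it, such as Alas2 (-1.26) and Cldn5 (-1.20). Large gaps on that array were thus not confined to atrial genes.

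**Figure D3:**
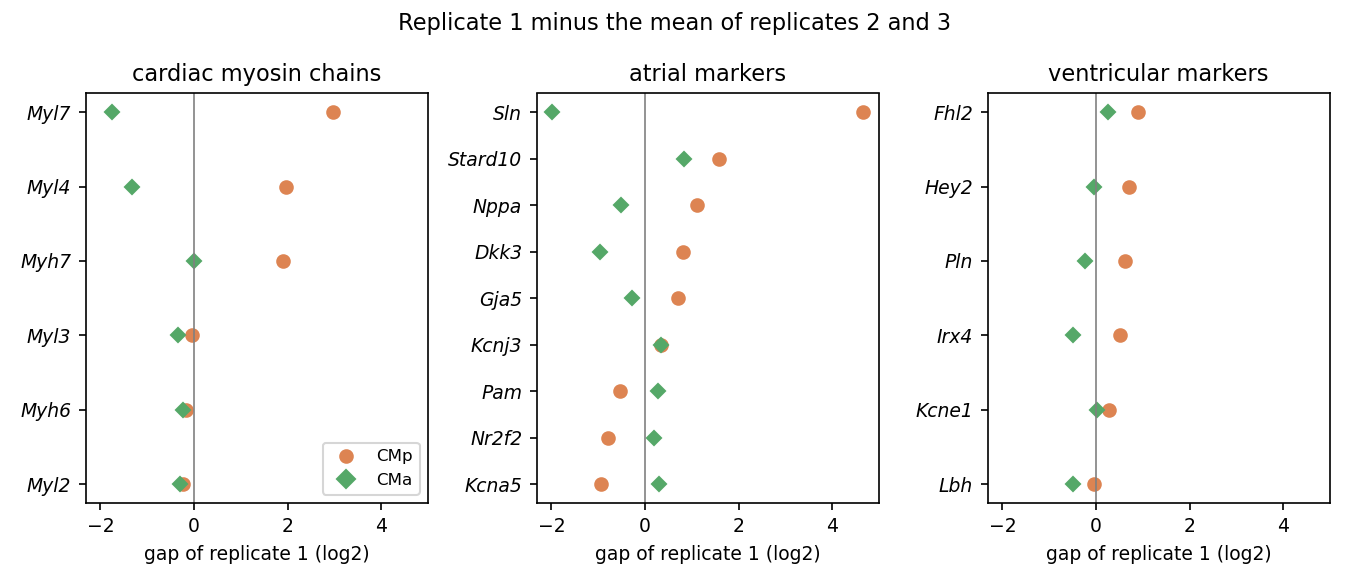
Log2 level on replicate 1 minus the mean of replicates 2 and 3 (x axis) for the cardiac myosin genes, the measured atrial markers and the ventricular markers, in CMp (circles) and CMa (diamonds). Sln, Myl7 and Myl4 lie far right in CMp and left in CMa, with Sln at 4.66 and -1.98.

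Markers of cell types other than cardiomyocytes also differed between CMp and CMa, in which age and heart region changed together. Between CMa and CMp 24.8% of all genes were called lower and 25.3% higher. Of the fibroblast markers, 8 of 8 measured were called lower in CMa than in CMp. Their log2 sum was 14.39 to 14.84 in CMp and 12.29 to 12.72 in CMa. Endothelial markers were called lower in 6 of 7, with log2 sums of 14.03 to 14.82 in CMp and 13.03 to 13.48 in CMa. Leukocyte markers were called lower in 3 of 5 (log2 sums of 9.47 to 10.18 and 8.02 to 9.01). Erythroid markers were called lower in 4 of 4, from log2 sums of 16.49 to 16.64 in CMp to 13.09 to 14.07 in CMa. Smooth muscle markers were mixed, 2 lower and 1 higher of 5. Of 11 skeletal muscle markers, Myod1, Myog, Myf5, Myf6, Pax7, Tnnt3 and Atp2a1 were detected on no array, and of leukocyte markers Ptprc was detected on none. Tnni2, fast skeletal troponin I, was detected on all cardiomyocyte arrays, 5.52-fold higher in CMp than in mES (adjusted p = 1.33e-06) and 2.41-fold lower in CMa than in CMp (adjusted p = 0.000402). The other 3 measured, Tnnc2, Actn3 and Mylpf, were called lower in CMp than in mES and were not called between CMa and CMp. The part of these cells in the lower Myh7, Myl4 and Myl7 of CMa was not tested.

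The genes whose level followed each member most closely were found as the 3 with the smallest root mean square difference of centred log2 levels over the 9 arrays, among 10800 genes. For Myh6 they were Tnnc1, cardiac troponin C (0.23), Ckm, muscle creatine kinase (0.39), and Nppa (0.44). For Myl3 they were Tnnc1 (0.29), myoglobin Mb (0.31) and the muscle cytochrome oxidase subunit Cox6a2 (0.39), and for Myl2 they were Mb (0.33), Myl3 (0.43) and Myh6 (0.49). These genes were low on all mES arrays and near the top on all 6 cardiomyocyte arrays.

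Myh7 was closest to Tnfrsf12a, the receptor of the cytokine TWEAK (0.36), Gja5, connexin 40 (0.38), and the protease Ctsk (0.39). Each of these was highest on CMp replicate 1 and lower on all CMa arrays than on any CMp array. Myl4 and Myl7 were each closest to the other (0.59). Next to Myl4 came Gadd45b (0.72) and Pcdh7 (0.73), and next to Myl7 came the AP-1 gene Fosb (0.71) and the protease gene Adamts1 (0.87). The likeness of Myl4 and Myl7 rested in part on the replicate 1 arrays: without CMp replicate 1 Myl7 ranked 9 for Myl4 and Myl4 ranked 24 for Myl7, with a difference of 0.55 over 8 arrays. Without replicate 1 of both CMp and CMa the ranks were 21 and 154.

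Other chains of striated muscle myosin were compared with the cardiac set. Of 11 such genes 4 were measured, and 3 were called higher in CMa than in CMp and none lower, where 25.3% of all genes were called higher. Of these 3, Myh14 was tested only because the CMa arrays detected it, which favours a higher level there. Myh8 was not called with the mean of its probes (log2 change 0.06, adjusted p = 0.834). Only Myl1 was free of both limits. Myl1, the essential light chain of fast skeletal muscle, was at 4.83 ± 0.36 in mES, 10.63 ± 0.80 in CMp and 13.57 ± 0.10 in CMa, and was 7.69-fold higher in CMa than in CMp (adjusted p = 8.46e-05). It therefore ran opposite to Myl4, and the difference between CMa and CMp was 3.40 on the log2 scale without CMp replicate 1. Myh8, the perinatal heavy chain of skeletal muscle, rose 2.17-fold on its brightest probe (adjusted p = 0.0141), but its other tested probe had a log2 change of -1.01, and heavy chain genes are alike enough that probes may cross-hybridise, which was not tested. Myh14, a nonmuscle heavy chain that stood in this list, was undetected in CMp and mES and at least 2.15-fold higher in CMa (adjusted p = 0.000248). Mylpf, the fast skeletal regulatory light chain, was highest in mES, at 9.49 ± 0.22 on 3 of 3 arrays, and changed by -4.59 in CMp (adjusted p = 2.78e-06). Myh1 and Myh4, fast skeletal heavy chains, were detected on no array.

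Of 7 measured myosin chains of smooth muscle and of nonmuscle cells, 4 were called lower in CMa than in CMp, 1 higher and 2 neither, where 24.8% of all genes were called lower and 25.3% higher. Myl9, the smooth muscle regulatory light chain, was at 12.71 ± 0.41 in CMp and 8.17 ± 0.20 in CMa, 23.3-fold lower (adjusted p = 5.06e-06), and without CMp replicate 1 the change was -4.30. Myh10 and Myh9, nonmuscle heavy chains, were 4.5-fold (adjusted p = 6.97e-05) and 1.99-fold (adjusted p = 0.0169) lower, and the essential light chain Myl6 was 2.36-fold lower (adjusted p = 0.000578). Myl12a, a nonmuscle regulatory light chain, was 3.15-fold higher in CMa (adjusted p = 9.4e-05). Myh11, the smooth muscle heavy chain, stood at 7.31 ± 0.61 and 7.06 ± 0.15 and was not called (adjusted p = 0.489). The fibroblast markers given above were lower in CMa too, while the smooth muscle markers were mixed and include Myh11 itself. The part of these cells was not tested.

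Enzymes that set the phosphorylation of the regulatory light chains were called higher in CMa than in CMp in 2 of 6 measured cases and lower in 1, which together is the 50% called among all genes. Mylk3, the cardiac myosin light chain kinase, was undetected in mES, at 9.31 ± 1.05 in CMp and at 10.88 ± 0.22 in CMa, 2.96-fold higher in CMa (adjusted p = 0.0108). Like Myl4 it was high on CMp replicate 1, 1.81 above the other CMp arrays. Ppp1r12b, a targeting subunit of myosin phosphatase, was 2.9-fold higher (adjusted p = 7.17e-05), and its relative Ppp1r12a was 4.19-fold lower on its brightest probe (adjusted p = 0.00111), with a log2 change of -0.23 on its other tested probe. Mylk, the kinase of smooth muscle, was 4.70 log2 units higher in CMp than in mES (adjusted p = 1.7e-08), and its level in CMa and CMp differed by -0.19 (adjusted p = 0.47).

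Of 9 measured partners and chaperones of the thick filament, 7 were called higher and 1 lower in CMp than in mES, beside 34.9% and 38.2% of all genes. Between CMa and CMp, 2 were called higher and 2 lower, beside 25.3% and 24.8% of all genes. Titin (Ttn), the molecular ruler of the filament, rose by 7.21 in CMp over mES on its brightest probe (adjusted p = 4.04e-08). Over its 10 tested probes the rise ran from 0.43 to 7.35. Cardiac myosin binding protein C (Mybpc3), undetected in mES, stood at 12.64 ± 0.44 in CMp and 13.25 ± 0.53 in CMa. Mybpc2, the fast skeletal form, was at 5.63 ± 0.12 in CMp and 8.54 ± 0.14 in CMa, 7.52-fold higher in CMa (adjusted p = 1.2e-06). Trim63, a ubiquitin ligase of the sarcomere, was 2.11-fold higher (adjusted p = 0.035). Hsp90aa1, the inducible chaperone that acts with UNC45 in myosin folding, was 4.01-fold lower in CMa (adjusted p = 0.000641), and Unc45a, the general form of that co-chaperone, was 1.48-fold lower (adjusted p = 0.0443). Unc45b, the striated muscle form, rose by 5.86 in CMp over mES on its brightest probe (adjusted p = 1.89e-09) and by 1.06 on its other tested probe. Between CMa and CMp it differed by 0.17 on the brightest probe (adjusted p = 0.469) and by 0.91 on the other. The calls of Mybpc2 and Hsp90aa1 between CMa and CMp held in all 22 settings, that of Trim63 in 13 and that of Unc45a in 12. The latter pair was lost, leaving 2 calls, without mES replicate 3, CMp replicate 2, CMp replicate 3 or CMa replicate 2.

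Of 18 measured transcription factors known to act on cardiac myosin genes, 16 were called higher and 1 lower in CMp than in mES, with the same counts for CMa, beside 34.9% and 36.3% of all genes called higher. On the brightest probe of each gene, the largest rises in CMp were those of Gata6 (6.86), Mef2c (6.14) and the coactivator Myocd (6.09). The lowest rise on any tested probe was 2.88 for Gata6, 1.52 for Mef2c and 1.53 for Myocd. The factor that fell was the retinoid receptor Rxra (-1.08, adjusted p = 0.000461). Between CMa and CMp 1 was called higher and 4 lower, beside 25.3% and 24.8% of all genes. Rxrg, the retinoid X receptor gamma, was at 5.49 ± 0.29 in CMp and 10 ± 0.11 in CMa, 22.7-fold higher in CMa (adjusted p = 4.55e-06). Hey2, a repressor of atrial genes in the ventricle, was 4.14-fold lower in CMa (adjusted p = 2.62e-05), Purb, a repressor that binds the Myh6 gene, 2.66-fold lower (adjusted p = 6.49e-05), Tbx20 2.2-fold lower (adjusted p = 0.00199) and Gata6 1.82-fold lower (adjusted p = 0.00382). The thyroid hormone receptor Thra, through which the hormone acts on heavy chain genes in rodents, was at 5.44 ± 0.31 and 5.70 ± 0.49 and was not called (adjusted p = 0.425). Tead1, a factor of the MCAT element, was not called either (0.20, adjusted p = 0.525), nor was Srf (-0.03, adjusted p = 0.901).

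**Figure D4:**
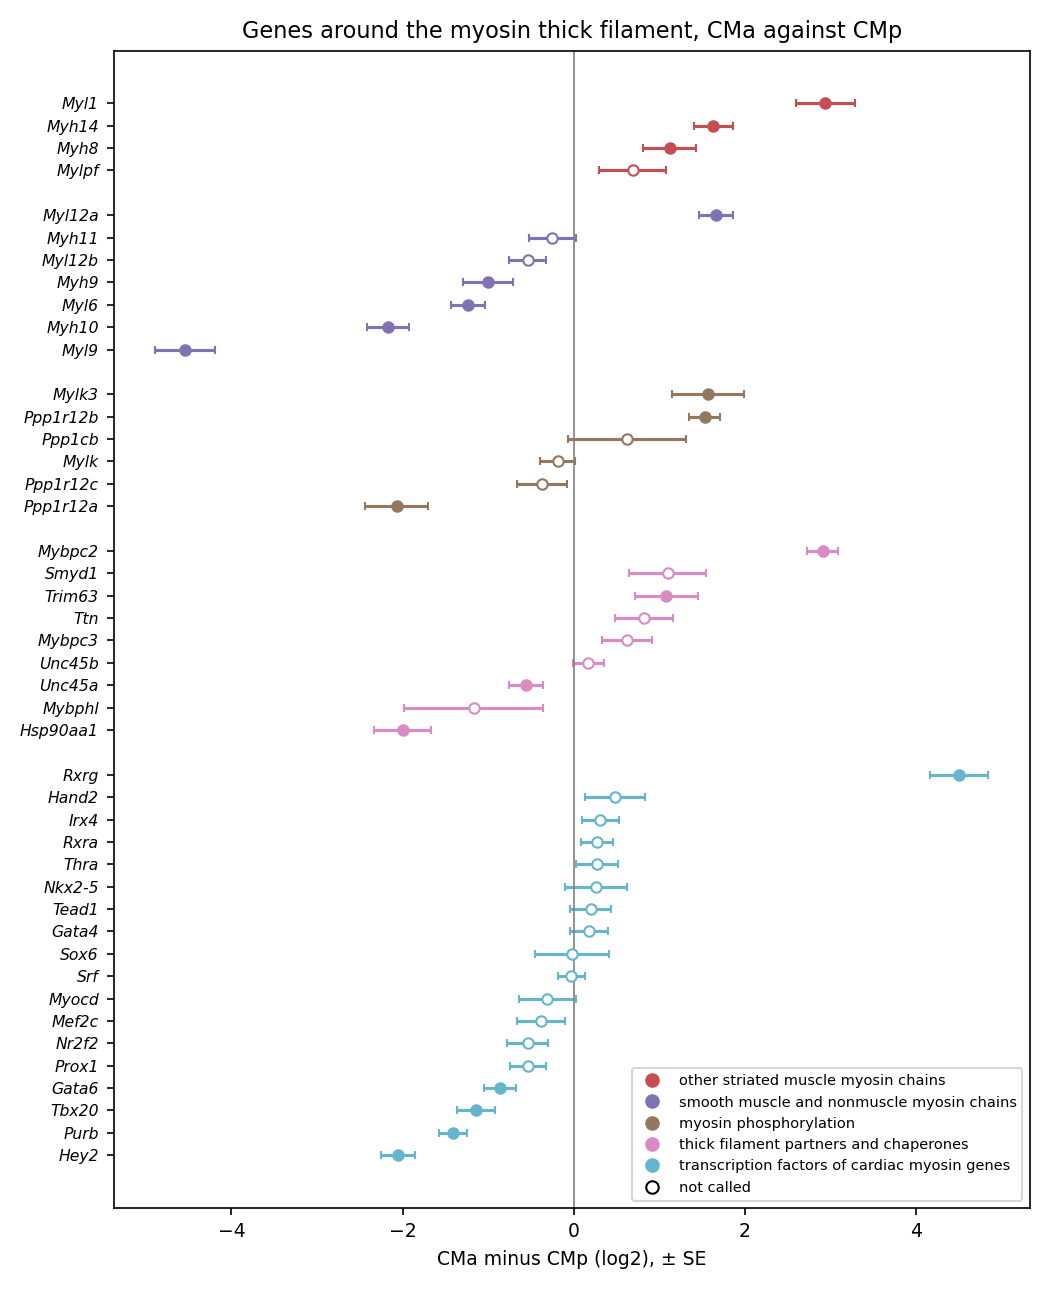
Log2 change in CMa against CMp (x axis) with its SE for the measured genes of 5 lists around the myosin thick filament (y axis, colours). Filled points passed the test and open points did not. Rxrg lies at 4.5 and Myl9 at -4.54, and 13 of 18 transcription factors did not pass.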

How the data were processed

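The genes and lists were chosen with earlier results of these data known. Per the file headers, the deposited scanner table gives a signal intensity per probe and array, not normalized between arrays, and a detection p-value beside it. The deposited matrix of log2 values, made with lumi according to the submitters' processing notes (version not given in the sources used here), served as an alternative.

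With limma 3.58.1 in R 4.3.3, nec corrected the background by way of the detection p-values (offset 16), and quantile normalization and log2 followed. A probe was kept if at least 3 of 9 arrays had its detection p under 0.01. The model had 1 mean for each group over all arrays (lmFit, eBayes), with Benjamini-Hochberg adjustment over all kept probes and calls at adjusted p under 0.05. A gene was read from its brightest kept probe. Symbols came from the platform annotation, updated through Entrez IDs, and 34885 of 45281 probes carried 1 symbol. The number of arrays limits the precision. The fit recovered known changes in simulated data. Genes named in the text are the 6 genes, their 3 nearest genes each, and of each list up to 4 called genes with the largest change in CMa against CMp, up to 3 in each comparison with mES and those against the list's direction, plus Sln, Nppa and the markers with the largest change or gap. Other genes named were chosen after their values were seen. Of 9 pairs of same-numbered replicates, 3 deviated together with a correlation above 0.1, as did 4 of 18 pairs with other numbers. The correlations ran from -0.146 to 0.484 for the same number and from -0.538 to 0.463 for other numbers. These values do not settle whether the numbers pair the samples. The main fit did not treat them as pairs and used no block. Alternatives are given in the closing section.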

Additional observations from a re-analysis of the deposited data

How the results depend on the processing

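Of 396 recomputed values of the 6 genes (log2 changes in 3 comparisons under 22 alternatives), 382 kept their side of the threshold and 14 lost the call. Among the 382, 3 values that were called in neither fit changed sign. None of the called values changed direction, but folds over mES depended on the background correction and the matrix, with log2 changes in CMa of 7.34 to 9.73 for Myh6, 7.46 to 10.25 for Myl2 and 7.56 to 10.62 for Myl3. Leaving out replicate 1 of CMp and CMa together was chosen after the data were seen. The Myl7 call in CMa against mES was lost with no background correction (1.26), with background offset 50 (1.66), with a common array median in place of quantile normalization (1.56), in the authors' matrix (0.76) and with no detection filter (2.29), and leaving out each array in turn gave 1.85 to 2.87. For Myh7 in CMa against mES the authors' matrix gave 0.53. Myh7 in CMa against CMp was not called in the authors' matrix (-0.73), with no detection filter (-1.40) or with only the 2 groups compared (-1.40), and leaving out arrays gave -1.78 to -0.77. In these cases the cause was not tested. Counts of called probes were 14006 for CMp and 14494 for CMa, each against mES, and 9266 between CMa and CMp. They were 8004, 8301 and 5633 with 1 probe per gene before the fit and 8020, 8263 and 5607 with the mean of a gene's probes, since fewer features were tested. Leaving out arrays gave 12923 to 14675, 13513 to 15292 and 7718 to 10591. With arrays scaled to a common median the median change of all probes moved to -0.58, -0.81 and -0.21, and the share of calls that were higher went from 45.6%, 45.2% and 49.4% to 33.8%, 28.8% and 32.6%. That scaling turned Myh10 in CMp against mES to -0.11 and, in CMa against mES, Myl9 to -0.01 and Purb to -0.70, and it put the called genes of the phosphorylation list at 5 in CMa against mES. In the authors' matrix Gja5 was at -0.02 in both comparisons with mES and at 0 in CMa against CMp, and none of its calls was kept. Without replicate 1 of both groups, Sln in CMa against CMp was 1.90 (adjusted p = 4.52e-05) and Nppa 0.64 (adjusted p = 0.0112). Both were called higher only there, where Myl4 (-1.54) and Myl7 (-1.55) were called lower. The thick filament list had 2 called genes in CMa against CMp with no detection filter and 2 to 5 with arrays left out, 2 of them without mES replicate 3, CMp replicate 2, CMp replicate 3 or CMa replicate 2. With the replicate number as a block, 14309, 14768 and 9672 probes were called and no call of the 6 genes changed, and 5 of 9 arrays correlated best with their own number. All 54 recomputed isoform differences kept their direction. Low signal limits Myh7, whose CMa level was below background on 2 of its 3 probes.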
